A study of Homo sapiens with 4 samples.

Results

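SAMHD1 and the enzymes that make, salvage and police deoxynucleoside triphosphates (dNTPs), the building blocks of DNA, were followed after depletion of TTF-1, the lung and thyroid transcription factor encoded by NKX2-1, in a pair of small cell lung cancer lines. The set holds 9 genes, SAMHD1, RRM1, RRM2, RRM2B, DCK, TK1, TYMS, DTYMK and DUT, of 19775 genes with a value, and takes every probe set that the platform annotation pairs with one of these symbols alone, 25 of 54613. SAMHD1 was chosen by its intensities after siTTF-1 and siNTC on these same arrays. The enzymes were chosen for their function, with earlier results of these data known. All siTTF-1 values of members below are thus a description, with no test. Cells of NCI-H209 or Lu139 were electroporated at 200 V and 950 μF with siRNA against TTF-1 (siTTF-1) or with non-targeting control siRNA (siNTC), and total RNA went to 1 Affymetrix array per combination, 4 arrays in all. The groups were siTTF-1 and siNTC in NCI-H209, and siTTF-1 and siNTC in Lu139; all of them were electroporated, the sources used here do not give the siRNA sequences, dose or harvest time, and each group is 1 array of 1 line.

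The supply of dNTPs rests on ribonucleotide reductase, a complex of the large subunit RRM1 with a small subunit, either RRM2 in S phase or RRM2B, which p53 induces. Thymidylate is made from deoxyuridylate by TYMS, or salvaged from thymidine by TK1, and is phosphorylated further by DTYMK, while DUT destroys dUTP and provides deoxyuridylate. DCK salvages deoxycytidine and purine deoxynucleosides and also activates nucleoside drugs such as cytarabine. SAMHD1 works in the opposite direction: it hydrolyses dNTPs to deoxynucleosides, is phosphorylated by cyclin-dependent kinases in cycling cells, and is known for limiting retroviruses in myeloid cells and for inactivating cytarabine triphosphate in leukaemia.

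The targeted transcript was lower on both of its probe sets in both lines. NKX2-1 had an intensity on 211024_s_at of 243 after siTTF-1 and 596 after siNTC in NCI-H209, or 40.7% of control. In Lu139 the same probe set read 461 after siTTF-1 and 780 after siNTC, or 59.1% of control. Median intensities were between 48.3 and 57.6 on the 4 arrays. Differences below are siTTF-1 minus siNTC on the log2(intensity + 18.7) scale, which understates the change of dim probe sets, and a probe set counts as expressed where its mean over the 4 arrays lies above an intensity of 36.9. Of the 25 member probe sets 22 passed this limit; those below it were SAMHD1 1559882_at, DTYMK 1565694_at and DTYMK 1565693_at. Of the 7 neuroendocrine markers of this cancer 5 had a value and all 5 were above the limit: INSM1 read 4742 to 9183 over the arrays, CHGA 1952 to 3814, NCAM1 870 to 2440 and DLL3 729 to 950, while the synaptophysin gene SYP read only 77.2 to 112. Of the 8 myeloid markers 6 had a value, CD14, ITGAM and CSF1R above the limit and the others below it, with summed intensities of 235 and 217 (siTTF-1 and siNTC) in NCI-H209 and 229 and 202 in Lu139. Of the 6 markers of T and B cells 5 had a value, with CD3E (63.7 to 88.6) and CD3D (41.1 to 51.8) above the limit and the others below it, the pan-leukocyte antigen PTPRC at 9.78 to 11.3, and summed intensities of 219 after siTTF-1 and 207 after siNTC for NCI-H209, with 194 after siTTF-1 and 172 after siNTC for Lu139. All 5 markers of fibroblasts and endothelium had a value, 4 of them above the limit, among them COL1A1 at 259 to 362 and PECAM1 at 94.4 to 146, and summed intensities of 616 after siTTF-1 and 557 after siNTC for NCI-H209, with 653 after siTTF-1 and 551 after siNTC for Lu139. All 3 of these sums were higher after siTTF-1 in both lines, as 35.1% of all expressed probe sets were, and each sum includes markers below the limit. Each array was made from cells of 1 line, so the sums are readings of the markers and not a share of other cell types.

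SAMHD1 was the member with the lowest values relative to control after siTTF-1. On its brightest probe set, 235529_x_at, the intensity was 174 after siTTF-1 and 548 after siNTC in NCI-H209, and 266 after siTTF-1 and 521 after siNTC in Lu139. The log2 differences were -1.56 and -0.92, with a mean of -1.24 (SD 0.45, n = 2 lines). Among the 14553 genes above the limit, each read on its brightest probe set, SAMHD1 had rank 11 from the lowest in NCI-H209 and rank 17 in Lu139. Both siTTF-1 arrays lay below both siNTC arrays, and the siNTC arrays of the lines were close to each other.

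The 6 probe sets of SAMHD1 differed in the size of this decrease. Next to 235529_x_at, the probe set 235964_x_at read 119 after siTTF-1 and 428 after siNTC in NCI-H209, and 186 after siTTF-1 and 371 after siNTC in Lu139. On 234987_at the readings were 71.5 after siTTF-1 and 272 after siNTC in NCI-H209, and 139 after siTTF-1 and 260 after siNTC in Lu139. These 3 probe sets stood at 26.3% to 31.7% of siNTC in NCI-H209 and at 50.2% to 53.3% in Lu139. The other 2 expressed probe sets showed smaller differences. On 204502_at the readings were 144 after siTTF-1 and 214 after siNTC in NCI-H209, and 98.6 after siTTF-1 and 112 after siNTC in Lu139, or 67.6% and 88.1% of siNTC. On 1559883_s_at they were 69.4 after siTTF-1 and 117 after siNTC in NCI-H209, and 53.9 after siTTF-1 and 74.6 after siNTC in Lu139, or 59.3% and 72.2% of siNTC. The last, 1559882_at, was near background, at 6.67 after siTTF-1 and 7.59 after siNTC in NCI-H209 and at 8.09 after siTTF-1 and 12.8 after siNTC in Lu139. The log2 difference of SAMHD1 in NCI-H209 thus ran from -1.69 to -0.51 over the 5 expressed probe sets, and in Lu139 from -0.93 to -0.16, so the probe set read decides its size; the mean of all 6 was -1.02 in NCI-H209 and -0.57 in Lu139. Among the 3 probe sets with the larger differences, 235529_x_at and 235964_x_at carry the suffix that the array maker gives to sets whose probes may bind other transcripts, and 234987_at does not.

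**Figure D1:**
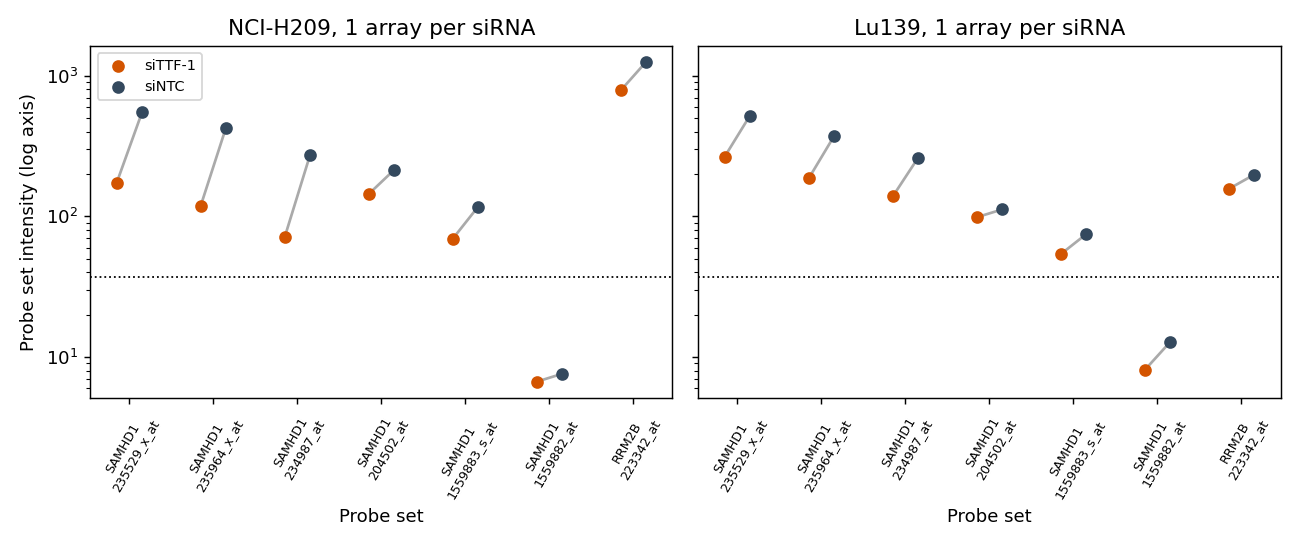
Intensity (log axis) of the 6 SAMHD1 probe sets and of the RRM2B probe set on the siTTF-1 (orange) and siNTC (dark) arrays of NCI-H209 (left) and Lu139 (right), 1 array per point, with the expression limit of 36.9 dotted. SAMHD1 is lower after siTTF-1 on all 6 probe sets in both lines, with the steepest lines on the 3 leftmost.

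All 6 SAMHD1 probe sets, 5 of them above the limit, were lower in both lines, where 27.6% of the 32768 probe sets above the limit were. At a 1.5-fold threshold, 3 of its probe sets were lower in both lines (0.345% of all probe sets) and 0 higher (0.0488%), with 4 lower in NCI-H209 (3.48%) and 3 in Lu139 (1.38%). The same contrast chose the gene, so nothing is read from these shares. Of 557 genes with at least 5 expressed probe sets, 42 had all of them lower in both lines, or 7.54%, and SAMHD1 was among them. On every expressed probe set the difference was larger in NCI-H209 than in Lu139; with 1 array per group this difference between the lines has no test.

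The promoter of SAMHD1 is shown because TTF-1 binds DNA sites built around the core CAAG. The window spans the annotated start at chr20:36951659-36951958 (GRCh38.p14, minus strand, 300 bases, from RefSeq), and capitals mark CAAG or its reverse complement CTTG.
SAMHD1 promoter: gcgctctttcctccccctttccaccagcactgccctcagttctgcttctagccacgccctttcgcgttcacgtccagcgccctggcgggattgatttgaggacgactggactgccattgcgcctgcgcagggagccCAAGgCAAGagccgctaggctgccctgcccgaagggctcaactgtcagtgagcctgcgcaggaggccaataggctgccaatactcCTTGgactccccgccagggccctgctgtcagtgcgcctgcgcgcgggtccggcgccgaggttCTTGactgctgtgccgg
It holds 4 matches, where the mean is 2.17 over the 35116 windows of the same length in the table, 86% of which hold at least 1. Among the other members, 4 matches also occur in a window of TK1 and in 3 windows of DUT, 3 in the window of RRM1 and in the first of RRM2. The longer form CTCAAG is not in this window and is in 12.4% of all windows, counted on both strands and with every longer match also a match of CAAG. A match of so short a core is a description of the letters and not a binding site.

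RRM2B, the small subunit that p53 induces, came second among the members. Its only probe set, 223342_at, read 788 after siTTF-1 and 1254 after siNTC in NCI-H209, and 157 after siTTF-1 and 198 after siNTC in Lu139. The log2 differences were -0.66 and -0.30, a mean of -0.48 (SD 0.25, n = 2 lines), at percentiles 2.53 and 6.95 of all expressed probe sets. RRM2B was thus 1.5-fold lower in NCI-H209, as 3.48% of probe sets were, and not in Lu139. With 1 probe set, no other measurement of the gene is at hand here.

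The other subunits of ribonucleotide reductase differed little between siRNAs. RRM2, the S-phase small subunit, read 8384 after siTTF-1 and 8284 after siNTC on 209773_s_at in NCI-H209, and 4366 after siTTF-1 and 4338 after siNTC in Lu139. On 201890_at it had log2 differences of -0.15 in NCI-H209 and 0.07 in Lu139. RRM1, the large subunit, read 8115 after siTTF-1 and 9041 after siNTC on 201477_s_at in NCI-H209, and 4159 after siTTF-1 and 4368 after siNTC in Lu139, and its log2 differences over both probe sets lay between -0.18 and -0.02. Of the small subunits, RRM2B was below control in both lines, and RRM2 had values on either side of 0.

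The promoter of RRM2 is shown as that of a member whose level was close to control. Capitals mark the CCAAT box in the window chr2:10122489-10122788 (GRCh38.p14, plus strand, 300 bases, from RefSeq), the second of the RRM2 windows in the table.
RRM2 promoter: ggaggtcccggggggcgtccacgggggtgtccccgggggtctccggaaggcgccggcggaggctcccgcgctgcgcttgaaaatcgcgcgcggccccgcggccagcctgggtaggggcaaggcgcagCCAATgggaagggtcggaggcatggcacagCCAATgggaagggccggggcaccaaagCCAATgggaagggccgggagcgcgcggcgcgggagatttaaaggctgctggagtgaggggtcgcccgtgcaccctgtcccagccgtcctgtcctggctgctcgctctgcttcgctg
It holds 3 CCAAT boxes, and 34.6% of all windows hold at least 1 on either strand. The first RRM2 window, which overlaps the one shown, holds 1. The SAMHD1 window above holds 2. CAAG has 2 matches in the RRM2 window shown. Windows were found for 8 of the 9 members, 13 in all, RRM2B being without an entry. An E2F site, searched as TTTGGCGC, TTTCCCGC, TTTGCCGC or TTTCGCGC on both strands, occurred in windows of DCK, TYMS and DUT and in 3.31% of all windows.

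DUT and TK1 were lower after siTTF-1 on every probe set. DUT, the dUTPase, read 7152 after siTTF-1 and 8567 after siNTC on its brightest probe set, 208956_x_at, in NCI-H209, and 6001 after siTTF-1 and 6588 after siNTC in Lu139. Its 3 probe sets had log2 differences from -0.36 to -0.26 in NCI-H209, and all 3 were at -0.13 in Lu139. TK1, the cytosolic thymidine kinase of S phase, read 861 after siTTF-1 and 1038 after siNTC on 1554408_a_at in NCI-H209, and 519 after siTTF-1 and 629 after siNTC in Lu139. It was the member with the most equal values in the lines, with log2 differences of -0.26 in NCI-H209 and -0.27 in Lu139 on this probe set (mean -0.27, SD 0.0029, n = 2 lines), and -0.22 and -0.19 on 202338_at. DCK, the deoxycytidine kinase, read 2277 after siTTF-1 and 2706 after siNTC in NCI-H209, and 1365 after siTTF-1 and 1455 after siNTC in Lu139. Its log2 differences on the 1 probe set were -0.25 and -0.09.

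TYMS and DTYMK had values near 0, with probe sets that disagreed in sign in NCI-H209 and were all lower in Lu139. TYMS, the thymidylate synthase and target of fluoropyrimidines, read 9706 after siTTF-1 and 10163 after siNTC on 202589_at in NCI-H209, and 7140 after siTTF-1 and 7625 after siNTC in Lu139. Its 3 probe sets lay between -0.07 and 0.03 in NCI-H209 and between -0.13 and -0.06 in Lu139. DTYMK, the thymidylate kinase, had log2 differences of -0.15 in NCI-H209 and -0.14 in Lu139 on its brightest probe set, 1553984_s_at. Its other expressed probe sets gave 0.01 and -0.05 on 203270_at, and 0.18 and -0.09 on 1553983_at.

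**Figure D2:**
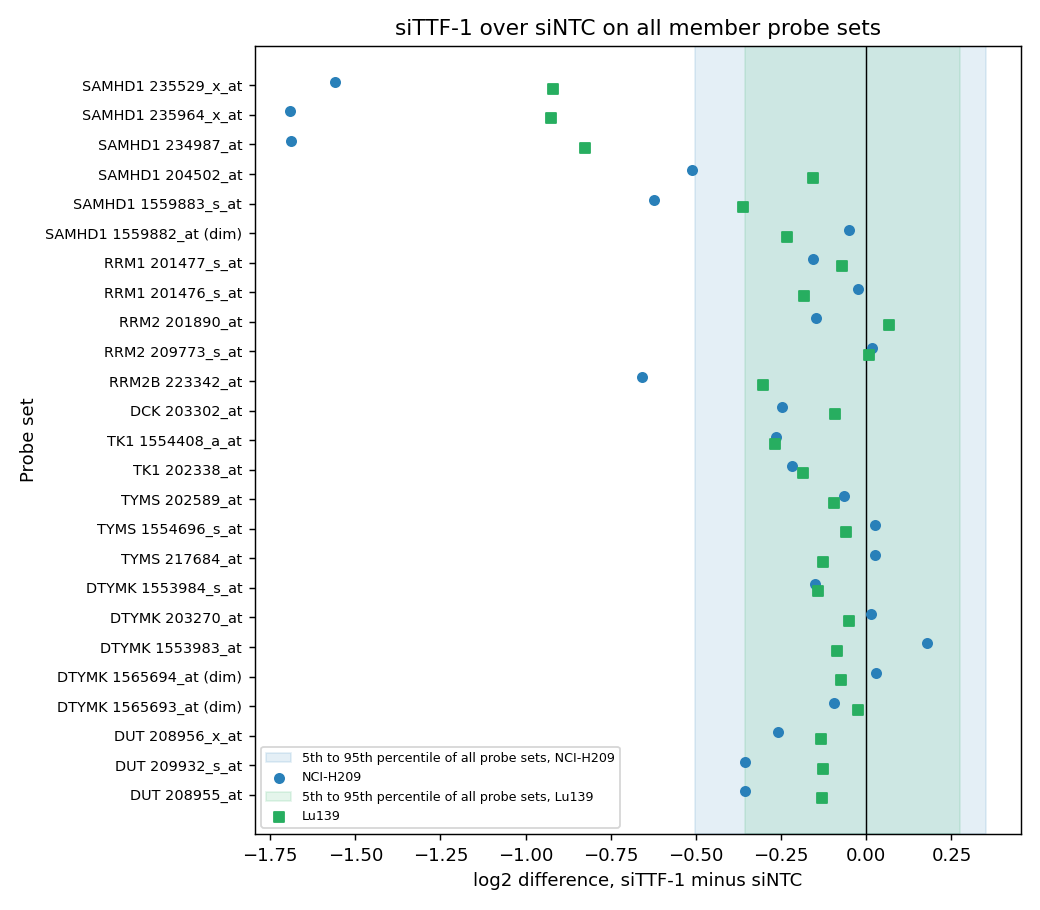
log2 difference (siTTF-1 minus siNTC) of all 25 member probe sets in NCI-H209 (circles) and Lu139 (squares), with the 5th to 95th percentile of all expressed probe sets shaded for each line. Of the enzymes, RRM2B in NCI-H209 is the point left of both bands, beside 5 of the SAMHD1 probe sets in that line.

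Beyond SAMHD1, 12 of 19 member probe sets were lower and 1 was higher in both lines, and 6 had opposite signs in the lines. Of the 17 expressed ones, 11 were lower, 1 was higher and 5 had opposite signs. Over all expressed probe sets these shares were 27.6%, 35.1% and 33.2%. The median log2 difference of the 17 expressed ones was -0.15 in NCI-H209 and -0.13 in Lu139, against 0.01 and 0.02 over all expressed probe sets. The enzymes were chosen for their function, but with earlier results of these data known, and several probe sets share a gene. The counts are thus given as they stand, and nothing is read from them. With each array centred on its median, 14 of the 19 were lower in both lines, and 12 were with either quantile normalization. None of the 22 expressed member probe sets was 1.5-fold higher in either line, where 1.12% of all expressed probe sets were in NCI-H209 and 0.159% in Lu139.

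**Figure D3:**
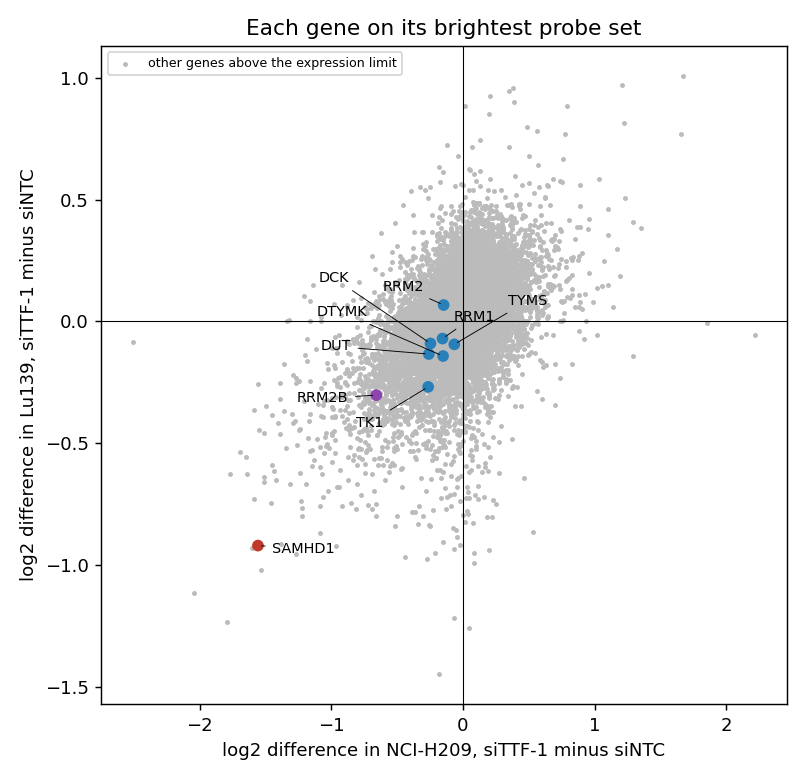
log2 difference (siTTF-1 minus siNTC) in Lu139 (vertical) against NCI-H209 (horizontal) for each gene above the expression limit on its brightest probe set (grey), with the 9 members marked. SAMHD1, at -1.56 and -0.92, lies at the lower left edge, RRM2B at -0.66 and -0.30, and the other members lie within the cloud near 0.

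The genes whose profile over the 4 arrays was most like that of SAMHD1 were sought among 14552 genes, by the Euclidean distance between log2 values centred on each gene's mean. The nearest was DSE, a dermatan sulfate epimerase, at a distance of 0.127 (log2 differences -1.38 in NCI-H209 and -0.91 in Lu139), where the median distance was 1.49. Then came the chromatin-binding co-regulator gene TRIM24 at 0.142 (-1.53 and -1.02), ZCRB1 at 0.189 (-1.51 and -0.66), AP3M2 at 0.357 (-1.44 and -0.62) and URI1 at 0.392 (-1.19 and -0.67). No member was among these 5.

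Other genes of nucleotide supply, regulators of SAMHD1 and ribonucleotide reductase, and genes of proliferation and of the interferon response were measured beside the members. They were 113 genes in 8 lists, of which 92 were expressed. The lists were chosen with earlier results of these data known, so their counts and limma values below are a description. Limma, with terms for line and siRNA and Benjamini-Hochberg adjustment over all expressed probe sets, called 0 of the 92 in either direction with an adjusted p below 0.05, as it called 0% of all probe sets. With no adjustment, 9 of the 92 had a limma p below 0.05 downward and 8 upward, where 9.29% of all probe sets did downward and 5.88% upward. At 1.5-fold in both lines, 0 were lower (0.344% of all genes) and 1 was higher (0.0481%), CDKN1A. Over the 92 genes pooled, 30 were lower in both lines and 30 higher in both, where 26.9% and 37.3% of all genes were. The lists differed in direction, as given below.

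CDKN1A encodes p21, an inhibitor of the kinases that phosphorylate SAMHD1. It read 1580 after siTTF-1 and 483 after siNTC in NCI-H209, and 681 after siTTF-1 and 329 after siNTC in Lu139, log2 differences of 1.67 and 1.01 (limma adjusted p = 0.104). The kinase gene CDK2 had 0.03 and 0.06, and CDK1 had 0.01 and -0.02. Among other regulators, the G1/S cyclin CCNE1 had 0.63 and 0.19, FZR1, an activator of the anaphase-promoting complex, 0.19 and 0.19, and CCNF, whose ubiquitin ligase degrades RRM2, 0.08 and 0.06. The E2F repressor E2F8 had -0.67 and -0.16, the checkpoint kinases CHEK1 -0.35 and -0.21 and ATR -0.31 and -0.16, and E2F1 -0.08 and -0.17. No gene of this list passed limma after adjustment.

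Genes of S phase and proliferation were lower in most cases, as TK1 and DUT were. The members RRM2, TYMS and DTYMK instead had probe sets on either side of 0 in NCI-H209. CDT1, a list gene lower in both lines, had -0.18 in NCI-H209 and only -0.0004 in Lu139. Both lines had a lower value for 10 of the 15 list genes and a higher one for 1, where 26.9% and 37.3% of all genes did. The list was chosen with earlier results of these data known, so nothing is read from this count. MCM2, MCM3, MCM4 and MCM5 differed in sign between the lines. Medians of the list were -0.22 in NCI-H209 and -0.07 in Lu139, against 0.01 and 0.03 over all genes. POLA1, a DNA polymerase alpha subunit, had -0.63 and -0.34, the DNA topoisomerase TOP2A -0.45 and -0.32, the proliferation marker MKI67 -0.32 and -0.35, and PCNA, the replication clamp, -0.17 and -0.09. RFC4, a clamp loader subunit, had 0.12 and 0.07. The part of proliferation in the values of TK1, DUT or SAMHD1 was not tested.

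Interferon-response genes, measured because SAMHD1 is interferon-inducible in several cell types, had mixed values. Both lines had a lower value for 1 of 12 expressed genes and a higher one for 6, where 26.9% and 37.3% of all genes did, and the other 5 differed in sign between the lines or were at 0 in a line. The median difference of the 12 was 0.18 (NCI-H209) and 0.05 (Lu139), beside 0.01 and 0.03 over all genes, and any part of interferon in the SAMHD1 values was not tested. ISG15, a ubiquitin-like protein gene, read 180 after siTTF-1 and 134 after siNTC in NCI-H209, and 45.4 after siTTF-1 and 31.6 after siNTC in Lu139 (log2 differences 0.38 and 0.35). IRF7 had 0.57 and 0.26 and IFIT3 0.22 and 0.13, while IFITM1 had -0.11 and -0.01.

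Genes on the folate side of thymidylate synthesis were divided. Of 5 expressed genes 3 were higher and 1 lower in both lines, where 37.3% and 26.9% of all genes were. SHMT2, the mitochondrial serine hydroxymethyltransferase, had 0.30 and 0.26, DCTD, which deaminates deoxycytidylate to the substrate of TYMS, 0.20 and 0.39, and MTHFD2 0.20 and 0.05. MTR, methionine synthase, had -0.62 and -0.21. These values had limma adjusted p-values between 0.167 and 0.36.

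The remaining lists had medians between -0.08 and 0.13. Their counts below stand beside 26.9% of all genes lower and 37.3% higher in both lines. Among salvage enzymes and nucleotide kinases 5 of 11 genes had lower and 3 had higher values in both lines, with the guanylate kinase GUK1 at -0.26 and -0.14, the mitochondrial deoxyguanosine kinase DGUOK at -0.23 and -0.11, TK2 at -0.19 and -0.08, UCK1 at 0.14 and 0.12, HPRT1 at 0.08 and 0.06 and APRT at 0.03 and 0.09. In breakdown and pool cleaning 2 of 11 were lower and 3 higher, with the thymidine phosphorylase TYMP at 0.21 and 0.29, UPP1 at 0.19 and 0.19, PNP at 0.06 and 0.18, ADA at -0.13 and -0.02 and DCTPP1 at -0.01 and -0.01. In de novo purine and pyrimidine synthesis 5 of 16 were lower and 5 higher, with the first purine enzyme PPAT at 0.34 and 0.33, IMPDH1 at 0.06 and 0.14, UMPS at 0.03 and 0.20, CTPS2 at -0.19 and -0.30, GART at -0.27 and -0.17 and PRPS2 at -0.11 and -0.09. In nucleoside transport 1 of 4 was lower, SLC28A1 at -0.07 and -0.05, and 0 higher in both lines. SLC28A1 read 38.5 to 41.8 over the arrays, just above the limit of 36.9.

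**Figure D4:**
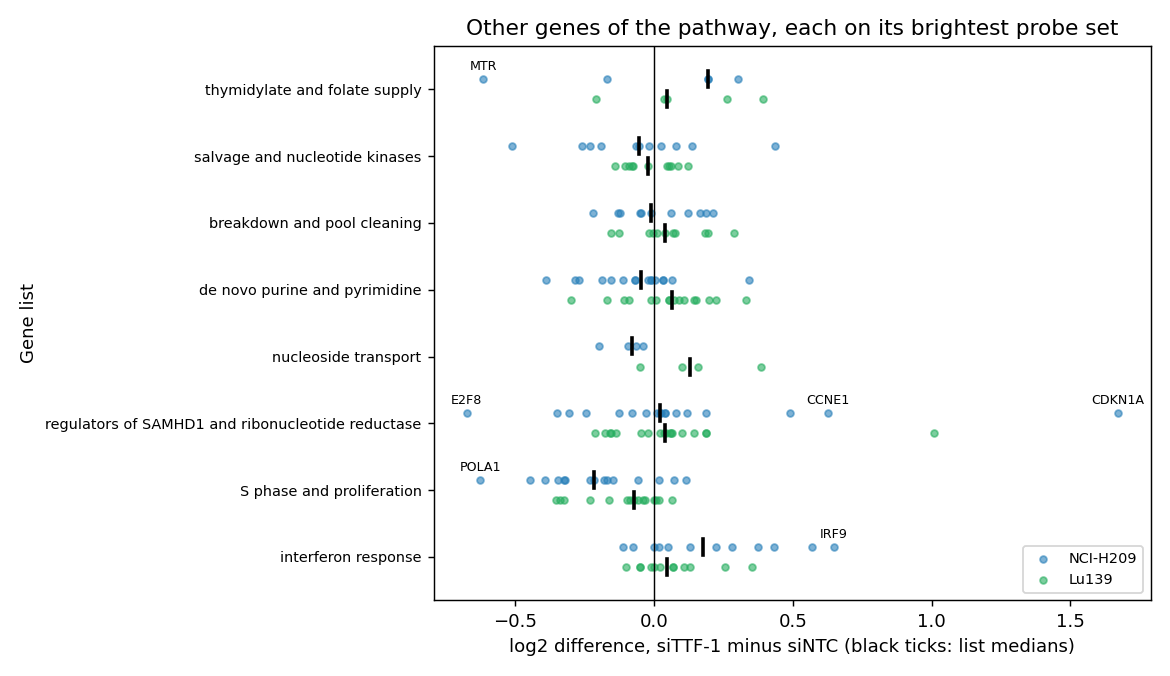
log2 difference (siTTF-1 minus siNTC) of the expressed genes of 8 lists in NCI-H209 (blue) and Lu139 (green), with the list medians as black ticks and genes past 0.6 in NCI-H209 named. CDKN1A, at 1.67 and 1.01, is the rightmost point in either line, and the S phase and proliferation list has medians of -0.22 and -0.07.

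The levels of the members were also set side by side between the lines, as Lu139 minus NCI-H209 with siRNA as a term and 2 arrays per line. The levels in each line were in view when the set was put together. This too is a description, with limma intervals as the spread of the fit and no test of the members. Exactly equal intensities on both arrays of a line occurred for 2414 probe sets in NCI-H209 and 2206 in Lu139, and how the arrays were scaled is not given in the sources used here, so a difference in scaling and a difference between the lines cannot be told apart. With an adjusted p below 0.05, limma called 17 of the 22 expressed member probe sets lower in Lu139 and 0 higher, where it called 48.8% of all expressed probe sets lower and 19.2% higher, and nothing is read from the members' count. Without the siRNA term, that count was 8 without the Lu139 siTTF-1 array and 10 without the Lu139 siNTC array. Of the 8861 probe sets at least as bright as the dimmest of the enzymes, each on its brightest probe set, 58.1% were called lower. The median of all expressed probe sets was itself -0.25, and quantile normalization over the 4 arrays turned it to 0.05, with 31.3% of probe sets called lower and 35.8% higher. Under that scaling 13 of the 17 calls remained, and 4 member probe sets were called higher. Those were SAMHD1 234987_at, 235529_x_at and 235964_x_at, and TYMS 217684_at. Arrays of a line differ by siRNA and come from 1 line each, so calls and intervals cover the spread of these 4 arrays alone, part of which may be technical.

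RRM2B had the largest difference between the lines. Its intensity was 157 and 198 in Lu139 (siTTF-1 and siNTC), against 788 and 1254 in NCI-H209, a log2 difference of -2.38 (limma 95% interval -2.68 to -2.08), and -1.94 with quantile normalization over the 4 arrays. RRM1 had 1457 and 1657 in Lu139, against 4026 and 4096 in NCI-H209, on 201476_s_at (log2 difference -1.38, interval -1.57 to -1.18), and its brighter probe set, 201477_s_at, had an interval of -1.14 to -0.86. For RRM2 the log2 differences were -0.93 on 209773_s_at and -0.59 on 201890_at, so all 3 subunit genes of ribonucleotide reductase were lower in Lu139, also with quantile normalization, where the values were -0.54 and -0.22 for RRM2 and -0.63 and -0.91 for RRM1.

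The salvage and thymidylate enzymes were lower in Lu139 on most probe sets as deposited, and each of these differences shrank or turned with quantile normalization over the 4 arrays. DCK had 1365 and 1455 in Lu139, against 2277 and 2706 in NCI-H209, a log2 difference of -0.81 (limma interval -1.02 to -0.60), and -0.34 with that normalization. TK1 had -0.71 and -0.89 on its probe sets, DTYMK -0.74 and -0.97 on 1553984_s_at and 203270_at, and TYMS -0.43 and -0.64 on 202589_at and 1554696_s_at. With that normalization TK1 had -0.25 on 1554408_a_at and -0.44 on 202338_at, DTYMK had -0.28 and -0.51, and TYMS had -0.14 and -0.19. DTYMK 1553983_at (-0.21, interval -0.49 to 0.06) and TYMS 217684_at (0.18, interval -0.07 to 0.42) had intervals that include 0. Both are dim beside the other expressed probe sets of their gene. With that normalization they had 0.18 and 0.47. DUT had -0.32, -0.31 and -0.78 on 208956_x_at, 209932_s_at and 208955_at. The sign of the first pair turned with quantile normalization over the 4 arrays, to 0.06 and 0.12.

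SAMHD1 showed no settled direction between the lines, and its probe sets divided as they did for the siRNA. The 3 probe sets with the larger siTTF-1 difference had log2 differences of 0.25, 0.19 and 0.37. Their limma intervals ran from -0.24 to 0.83, and each included 0. On the brightest, 235529_x_at, the siNTC arrays alone gave -0.07 and the siTTF-1 arrays alone 0.57. The other 2 expressed probe sets were lower in Lu139: 204502_at had 98.6 and 112 in Lu139, against 144 and 214 in NCI-H209 (log2 difference -0.65, limma interval -0.94 to -0.36), and 1559883_s_at had -0.41 (limma interval -0.66 to -0.16). With quantile normalization over the 4 arrays the first 3 were at 0.61 to 0.77, and 204502_at was at -0.31. Limma called the first 3 higher in Lu139 under that normalization, which is a description of the fit and no test. With each array centred on its median, 234987_at was the only one of them called. On 1559883_s_at the value was -0.18 with quantile normalization over the 4 arrays and -0.25 with centring. A direction for the gene thus depends on the probe set, and its size on the scaling.

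**Figure D5:**
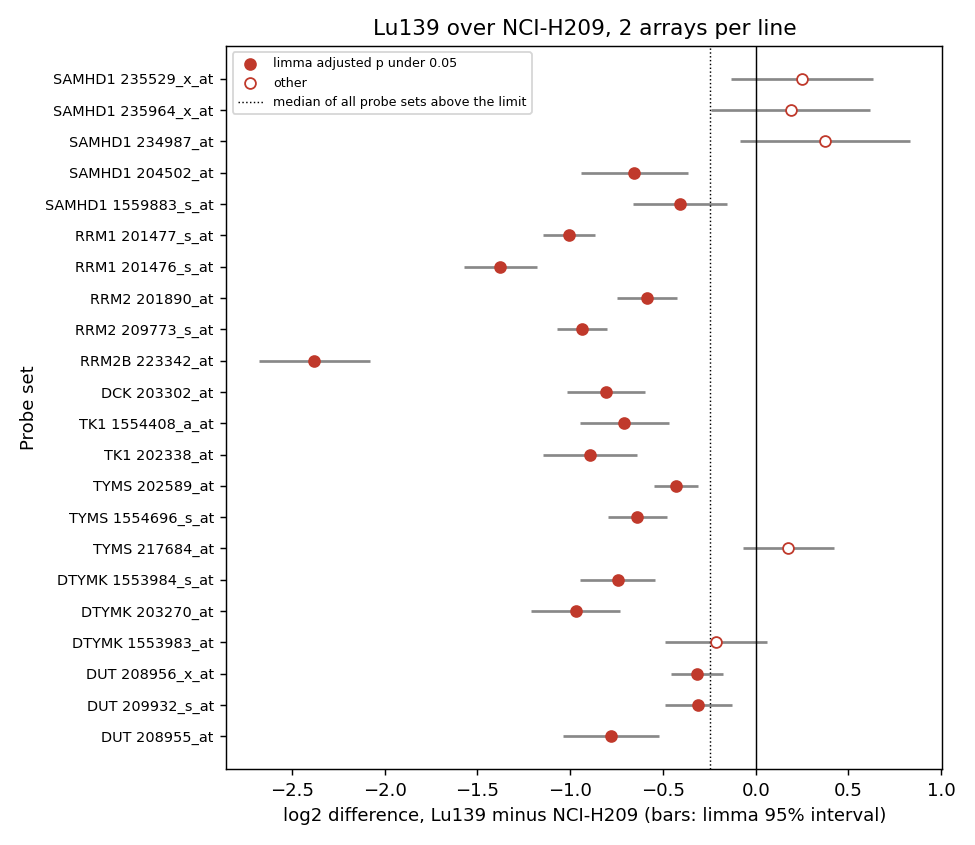
log2 difference (Lu139 minus NCI-H209, 2 arrays per line) of the 22 expressed member probe sets, with limma 95% intervals as bars, filled points for an adjusted p under 0.05, and the median of all expressed probe sets (-0.25) dotted. The filled points mark the fit and are no test of the members. RRM2B lies farthest left at -2.38 and 3 SAMHD1 probe sets lie right of 0; with quantile normalization over the 4 arrays DUT 208956_x_at and 209932_s_at moved to 0.06 and 0.12.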

How the data were processed

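Total RNA (column kit) was made into biotinylated cRNA for Affymetrix arrays, per the labels' protocols. The authors deposited 1 intensity per probe set and array, on a linear scale. The submitters' processing notes name Affymetrix Expression Console; how it summarised and normalized the probes, and its version, are not given in the sources used. Exactly equal intensities on both arrays of a line occurred for 2414 probe sets in NCI-H209 and 2206 in Lu139, so values may have been scaled within each line.

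Of 54675 probe sets, 62 controls were left out. The platform annotation paired 41091 with 1 symbol, 1801 with several and 11721 with none, and symbols were updated through RefSeq (GRCh38.p14) for 41037. The pseudocount before log2 was 18.7, the 25th percentile of all values. The expression limit was the 40th percentile of the mean over the 4 arrays, which left 32768 probe sets and 14553 genes. A gene was read on its brightest probe set. Differences between siRNAs have 1 array per group and no test for members, and differences between lines are given for members as a description, although a test was planned. The fit used limma 3.58.1 in R 4.3.3 with terms for line and siRNA, a variance trend, 1 residual and 5.96 prior degrees of freedom, Benjamini-Hochberg adjustment and two-sided tests, and was tested on simulated data. Figures were drawn with matplotlib 3.10.9. The number of arrays limits the precision.

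The members and lists were chosen with earlier results of these data known. Named beyond the members were, per list, up to 3 genes in each direction with the same sign in both lines and the largest smaller difference, a few regulators whatever their values, and the 5 genes nearest to SAMHD1. CDK1 was added after its values were seen. Of the 113 list genes, 10 had no probe set paired with them alone and are not analysed here. Alternatives were other pseudocounts, scalings and expression limits, gene means over probe sets, sets without _x_at and _s_at identifiers, other model terms and leaving out arrays.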

Additional observations from a re-analysis of the deposited data

How the results depend on the processing

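The log2 difference of SAMHD1 kept its direction under all alternatives run, between -1.69 and -1.02 in NCI-H209 and between -0.95 and -0.57 in Lu139. It stayed 1.5-fold lower in both lines except that the mean of all probe sets gave -0.57 in Lu139. Without _x_at and _s_at probe sets, SAMHD1 kept 234987_at, 204502_at and 1559882_at, the last near background. All 3 were lower in both lines, against 6. Only 234987_at was 1.5-fold lower in both lines, against 3 member probe sets, because 235529_x_at and 235964_x_at were left out. Quantile normalization over the 4 arrays gave 1 limma call upward among the list genes, against 0. Over all probe sets it gave 54 lower and 13 higher calls, against 0 and 0. Between the lines it gave 13 member probe sets lower and 4 higher in Lu139, and moved the log2 difference of DUT to 0.0605; centring each array on its median gave 15 lower and 2 higher, and no expression limit 18 lower and 1 higher, SAMHD1 1559882_at. Of all line calls, 71.7% were lower as deposited, 46.6% with quantile normalization over the 4 arrays and 59% with centring. The siNTC arrays alone gave -0.0716 for SAMHD1 between the lines. Leaving out each array in turn, without the siRNA term, gave 8 to 16 member probe sets called lower in Lu139 and 0 called higher; the lowest counts were 8 without Lu139 siTTF-1 and 10 without Lu139 siNTC. The lone array of a line is there assumed to vary like the others. Beyond the settings that define these changes, the cause was not tested. The limma fit of the siRNA effect is itself paired, with the line as a block over 2 pairs. Without the line term it also gave 0 calls among the list genes. The labels give no replicate numbers for any other pairing.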
